A study of Mus musculus with 12 samples.

Results

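The melanocyte lineage genes described here are 8 genes named by symbol: the transcription factors Mitf, Sox10, Sox9, Pax3, Tfap2a and Lef1, and the receptors Mc1r and Ednrb. They were taken as the rows of the count table whose Ensembl identifier maps to those symbols, which gave 8 of 56093 entries. The rule goes by symbol and sets no threshold on a measured value. A filter on low counts kept 6 of the 8, and Lef1 and Ednrb were left with almost no reads.

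The cells were B16, a melanoma line of the mouse, given an shRNA against Sdc1 (shSdc1) or a control shRNA against RFP (shRFP), and their RNA was sequenced. Sdc1 encodes syndecan-1, a heparan sulfate proteoglycan of the cell surface. The 4 groups of 3 libraries each were shSdc1 without IFNγ, shRFP without IFNγ, shSdc1 with IFNγ (10 ng/ml for 24 h) and shRFP with IFNγ at the same dose and time. All cells had thus been given an shRNA, and how many hairpins or clones stand behind a group is not given in the sources used here. The labels name no separate cultures behind the 3 libraries of a group. Each p-value thus rests on the spread between libraries, which may be technical.

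MITF is a basic helix-loop-helix leucine zipper factor that binds E-box and M-box motifs and is known as the master regulator of the melanocyte lineage. SOX10, PAX3, CREB and LEF1 are known to act on its melanocyte promoter, and MC1R feeds into it through cAMP, while the endothelin receptor EDNRB and the receptor KIT signal to it in developing melanoblasts. MITF in turn drives genes of melanosome structure and pigment synthesis, often together with SOX10, TFAP2A or LEF1.

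The libraries held 14337771 to 21548940 counts, and levels are given as CPM, counts relative to the library total, scaled by TMM, a normalization that assumes most genes did not change. Sdc1 itself stood at 22.1 to 25.7 CPM in shSdc1 cells and 73.9 to 76.4 CPM in shRFP cells, and at 25.1 to 27 CPM in shSdc1 cells with IFNγ and 79.6 to 103 CPM in shRFP cells with IFNγ. The melanocyte markers Pmel, Mlana, Dct, Tyrp1, Tyr, Sox10 and Mitf were all present at over 200 CPM in every library. Replicate 3 of shSdc1 stood apart: an entry with no symbol took 4.79% of its counts, against 0.0842% to 0.195% in the other 11 libraries. Without that entry and the assembled loci, 6 members passed in the knockdown comparison without IFNγ and 3 with it, and the log2 fold changes of Mitf were -0.61 and -0.63.

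The first comparison, shSdc1 against shRFP cells without IFNγ, asks what the knockdown did to the lineage factors in unstimulated cells. All 6 members tested fell: Sox9 most (log2 fold change -1.55 ± 0.19, SE), then Mitf (-0.61 ± 0.06), Mc1r (-0.36 ± 0.05), Tfap2a (-0.27 ± 0.05), Pax3 (-0.17 ± 0.04) and Sox10 (-0.13 ± 0.04). Of all 14089 genes tested, 14.6% were lower and 14% higher at the same threshold, an edgeR quasi-likelihood p adjusted over all genes (Benjamini-Hochberg) below 0.05. The median over all genes was 0. With IFNγ in both arms, 3 of the 6 fell, namely Mitf (-0.63 ± 0.06), Tfap2a (-0.42 ± 0.05) and Mc1r (-0.39 ± 0.05), where 17.4% of all genes were lower and 18.9% higher. The median over all genes was then 0.02 on the log2 scale. The same shares over all genes are the ones to set beside the counts given below for each gene list in the knockdown. In such bulk RNA, fewer cells of a kind and less RNA per cell cannot be told apart.

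**Figure D1:**
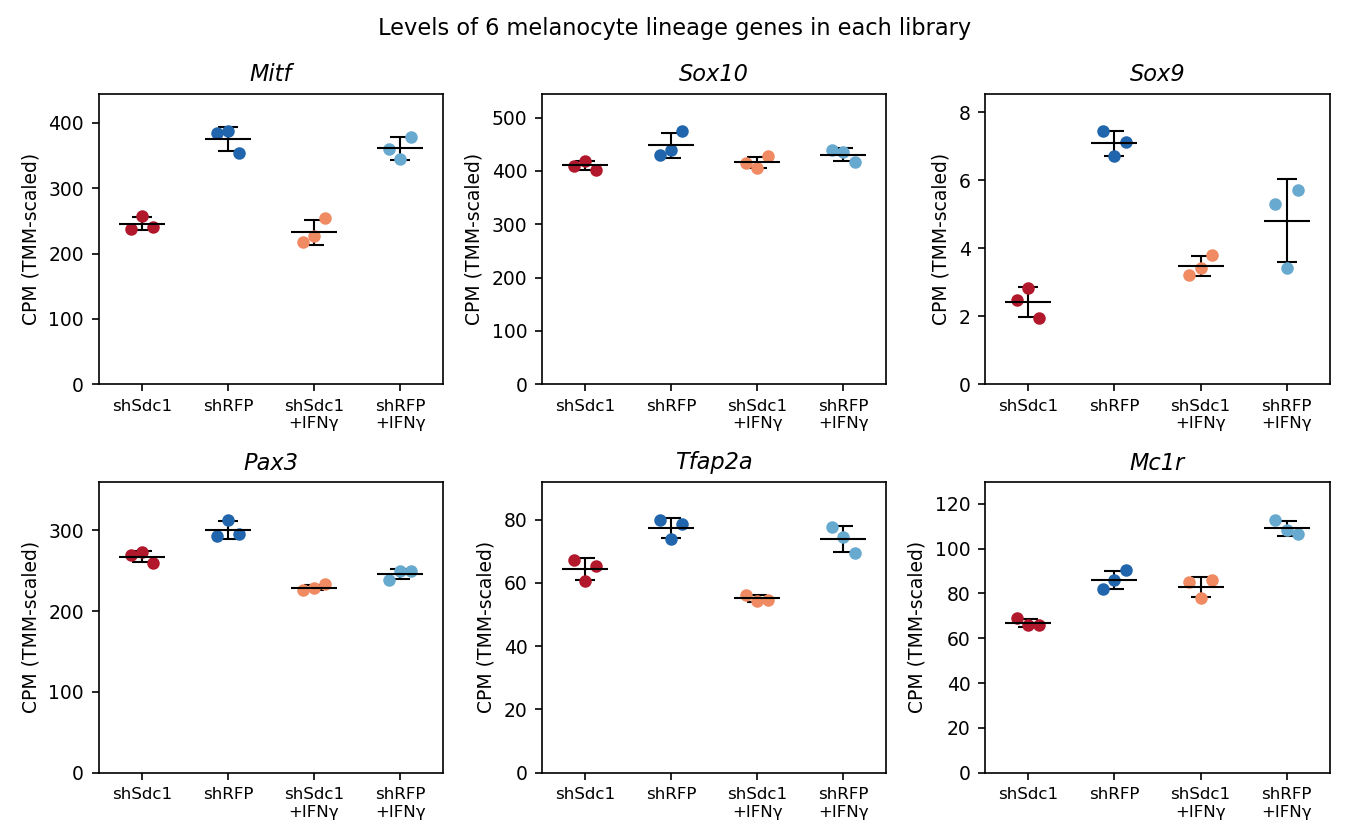
Level of each of the 6 tested lineage genes (TMM-scaled CPM, linear axis from 0) in each of the 12 libraries, with 1 point per library and lines for the mean and SD of 3. For Mitf, the knockdown libraries with and without IFNγ lie between 218 and 257 CPM and all shRFP libraries between 344 and 387 CPM; for Sox10 all 12 libraries lie between 401 and 474 CPM.

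Mitf (ENSMUSG00000035158) had 238, 257 and 241 CPM in the 3 shSdc1 libraries, against 384, 387 and 354 CPM in the 3 shRFP libraries. With IFNγ it had 218, 227 and 254 CPM in shSdc1 libraries and 360.2, 344 and 378 CPM in shRFP libraries. Every knockdown library was below every control library, whether or not IFNγ was given. Mitf fell by 34.5% in the knockdown without IFNγ (edgeR adjusted p = 9.3e-08), and in the presence of IFNγ it fell by 35.6% (edgeR adjusted p = 4.67e-08). The difference between these changes was -0.02 ± 0.08 on the log2 scale and did not pass (edgeR adjusted p = 0.891). IFNγ itself gave -0.08 ± 0.06 in shSdc1 cells (edgeR adjusted p = 0.315) and -0.06 ± 0.05 in shRFP cells (edgeR adjusted p = 0.476), with overlapping libraries in each case. The counts are per gene, so the isoforms that start from the several Mitf promoters cannot be told apart.

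Mitf has 3 start sites in the RefSeq promoter table (build GRCm38.p6), which gives 250 bases before and 50 after each start. Of these, the start farthest downstream holds a full cAMP response element, TGACGTCA, beginning 153 bases before the start, and CTTTGAT, a LEF/TCF-type motif, beginning 205 bases before it. Its sequence is printed because CREB and LEF1, the factors that bind such motifs, are known links from Mc1r and from Wnt signalling to Mitf. The capitals mark the motifs.
Mitf start 3, chr6:97991533-97991832, plus strand: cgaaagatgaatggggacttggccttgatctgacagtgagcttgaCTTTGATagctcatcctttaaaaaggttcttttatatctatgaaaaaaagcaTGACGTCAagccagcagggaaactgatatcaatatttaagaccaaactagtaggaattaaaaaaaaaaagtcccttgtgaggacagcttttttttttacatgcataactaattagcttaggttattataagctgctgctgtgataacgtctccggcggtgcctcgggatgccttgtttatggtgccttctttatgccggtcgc
Of 32851 start sites in the table, 1.79% hold TGACGTCA and 3.73% hold CTTTGAT, searched on both strands. The other 2 Mitf starts hold neither. A match of letters shows only that they are present, not that a factor binds there.

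The genes whose pattern was most like that of Mitf over the 12 libraries were Pgpep1, Stau2, Fzd7, Cdc40 and Appl2. Their root mean square differences from Mitf, on centred log2(CPM + 0.5) values, were 0.0702, 0.0751, 0.0755, 0.0787 and 0.0807, against a median of 0.343 over 9732 candidates. These 5 were picked by their likeness in these same libraries, so a fall in the knockdown follows from the choice and is no separate result. Without IFNγ their log2 fold changes were -0.58 for Pgpep1, -0.61 for Stau2, -0.66 for Fzd7, -0.56 for Cdc40 and -0.53 for Appl2.

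The other genes of the MiT/TFE family, which bind the same E-box core, did not pass in either knockdown comparison. Tfeb, a regulator of lysosomal genes, averaged 17.5 CPM in shSdc1 and 15.8 CPM in shRFP cells (0.15 ± 0.09, edgeR adjusted p = 0.238). Tfe3 averaged 59.3 CPM in shSdc1 and 59.5 CPM in shRFP cells (-0.00381 ± 0.05, edgeR adjusted p = 0.969), and Tfec was near 0. Of the 4 family genes, 1 fell in either knockdown comparison, which was Mitf, and 0 rose. Among the 3 tested, the medians were -0.00381 without IFNγ and -0.15 with it.

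Sox10 (ENSMUSG00000033006), the SOX factor that defines the neural crest glial and melanocyte lineage, had 410.1, 419 and 401 CPM in shSdc1 libraries, against 430.2, 439 and 474 CPM in shRFP libraries. With IFNγ it had 416, 406 and 427 CPM in shSdc1 libraries and 438, 436 and 417 CPM in shRFP libraries. The groups did not overlap without IFNγ and overlapped with it. Without IFNγ Sox10 fell by 8.38% in the knockdown (edgeR adjusted p = 0.0249), and this no longer passed without replicate 3 of shRFP (adjusted p = 0.146), replicate 1 of shSdc1 (0.0707) or replicate 3 of shSdc1 (0.125). With IFNγ the change was -0.05 ± 0.04 (edgeR adjusted p = 0.375), and the difference between these changes did not pass (0.08 ± 0.06, edgeR adjusted p = 0.422).

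Sox9 (ENSMUSG00000000567), a related SOX factor of neural crest and cartilage, was low throughout, with 32 to 163 counts per library. It had 2.49, 2.81 and 1.95 CPM in shSdc1 libraries, against 7.43, 6.70 and 7.12 CPM in shRFP libraries. With IFNγ it had 3.22, 3.43 and 3.80 CPM in shSdc1 libraries and 5.29, 3.43 and 5.71 CPM in shRFP libraries. The groups stood apart without IFNγ, while with it replicate 2 of shRFP lay among the knockdown libraries. Sox9 fell by 65.8% in the knockdown without IFNγ (edgeR adjusted p = 3.79e-06), and its change with IFNγ was -0.46 ± 0.19 (edgeR adjusted p = 0.0636). Given IFNγ, shSdc1 cells changed by 0.52 ± 0.21 (edgeR adjusted p = 0.0658), while in shRFP cells Sox9 fell (-0.57 ± 0.17, edgeR adjusted p = 0.0168).

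The difference between the knockdown effects with and without IFNγ was 1.09 ± 0.27 on the log2 scale for Sox9 (edgeR adjusted p = 0.0161). It was the member of the 6 that passed this interaction test, which 9.73% of all genes passed. That share rests on all 12 libraries: 645 genes were higher and 726 lower, and leaving out a library gave 373 to 943 higher and 416 to 1056 lower, with the lowest counts without replicate 1 of shSdc1. The counts moved by over 1.5 times without replicate 1 or 2 of shRFP, replicate 1 of shSdc1 or replicate 2 of shSdc1 with IFNγ, and the higher count also without replicate 2 of shRFP with IFNγ. Replicate 2 of shRFP with IFNγ, the low library, decided some of the Sox9 calls. Without it the knockdown effect with IFNγ passed at -0.67 (edgeR adjusted p = 0.00597) and the IFNγ effect in shSdc1 cells passed at 0.51 (0.0311), while the IFNγ effect in shRFP cells did not (-0.36, adjusted p = 0.11). That last call was also lost without replicate 1 of shRFP (-0.53, adjusted p = 0.0612).

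The genes most like Sox9 over the 12 libraries were Crmp1, Mpp7, Pla2g2e, Arfgef3 and Ano3, at root mean square differences of 0.229, 0.238, 0.248, 0.249 and 0.251, with a median of 0.555 over 9733 candidates. In the knockdown without IFNγ the log2 fold change was -0.90 for Crmp1 and -1.06 for Mpp7, against -1.55 for Sox9. Here too the genes were picked by their pattern in these libraries, so a shared direction follows from the choice.

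Among 8 SOX factors of the neural crest, 6 were tested. Without IFNγ 5 fell in the knockdown and 0 rose (median -0.20), and with IFNγ 2 fell and 2 rose (median -0.15). Sox5, a modulator of SOX10 action, fell in both settings (-0.43 ± 0.06 and -0.38 ± 0.06), and so did Sox11 (-0.20 ± 0.06 and -0.25 ± 0.06). Sox4 fell without IFNγ (-0.21 ± 0.07) and rose with it (0.34 ± 0.08), a difference that passed the interaction test (0.55 ± 0.11, edgeR adjusted p = 0.00367). Sox6 rose with IFNγ (0.22 ± 0.05). Sox2 and Sox8 were at or near 0.

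Pax3 (ENSMUSG00000004872), a paired-box factor that acts on the Mitf promoter, had 269, 273 and 259.6 CPM in shSdc1 libraries, against 293, 313 and 295 CPM in shRFP libraries. With IFNγ it had 226, 228 and 233 CPM in shSdc1 libraries and 239, 249.1 and 249.3 CPM in shRFP libraries. Every knockdown library was below every control library in the same setting, and every library with IFNγ was below every library of the same shRNA without it. The knockdown change was -0.17 ± 0.04 in the absence of IFNγ (edgeR adjusted p = 0.00348) and -0.10 ± 0.04 in its presence (edgeR adjusted p = 0.0566). The value with IFNγ sat close to the threshold and passed in 5 of 21 alternatives, with an adjusted p of 0.0381 to 0.049 in those. IFNγ lowered Pax3 as well, at -0.22 ± 0.04 in shSdc1 cells (edgeR adjusted p = 0.000301) and -0.29 ± 0.04 in shRFP cells (edgeR adjusted p = 1.89e-05).

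Tfap2a (ENSMUSG00000021359), which encodes AP-2α and binds many of the regulatory elements that MITF binds, had 67.4, 60.6 and 65.2 CPM in shSdc1 libraries, against 79.9, 73.8 and 78.6 CPM in shRFP libraries. With IFNγ it had 56.3, 54.4 and 54.6 CPM in shSdc1 libraries and 77.5, 74.6 and 69.6 CPM in shRFP libraries. The knockdown libraries were the lower ones in both settings, without overlap. Tfap2a fell by 16.9% in the knockdown without IFNγ (edgeR adjusted p = 0.000872). In cells given IFNγ it fell by 25.5% (edgeR adjusted p = 6.29e-06), and these changes did not differ past the threshold (-0.16 ± 0.08, edgeR adjusted p = 0.203). IFNγ lowered Tfap2a in shSdc1 cells (-0.23 ± 0.05, edgeR adjusted p = 0.00399), and the change in shRFP cells was -0.07 ± 0.05 (edgeR adjusted p = 0.361). Antisense genes overlap its exons with 8 to 305 counts each over all 12 libraries, and the strand setting of the counting is not given in the sources used here.

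Of the 12 PAX3, TFAP2 and neural crest factors listed, 4 were tested, and in the knockdown 2 fell without IFNγ and 1 with it, while 0 rose (medians -0.18 and -0.14). The neural crest factors Foxd3, Pax7, Msx1, Msx2 and Tfap2c had 0 counts in every library. Snai2 and Zic1 were measured and did not pass in either knockdown comparison.

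Lef1 (ENSMUSG00000027985), which partners β-catenin and is known to bind the MITF protein, had 3 counts in replicate 3 of shSdc1 and 0 in the other 11 libraries. That library stood at 0.183 CPM. In the 3 groups at 0 counts, a count of 0 allows up to 0.0593 CPM in shSdc1 cells with IFNγ, 0.0563 CPM in shRFP cells and 0.0661 CPM in shRFP cells with IFNγ, by counting error alone. Its family member Tcf7l2 averaged 27.1 CPM in shSdc1 and 21.8 CPM in shRFP cells and rose (0.31 ± 0.07 without IFNγ and 0.37 ± 0.07 with it). Ctnnb1, β-catenin itself, averaged 984 CPM in shSdc1 and 1181 CPM in shRFP cells and fell (-0.26 ± 0.03 and -0.32 ± 0.03). Of the 8 LEF/TCF factors, β-catenin and its cofactors, 7 were tested, and 3 rose and 1 fell in each knockdown comparison (medians 0.12 and 0.19). Among all genes 14% rose and 14.6% fell without IFNγ, and 18.9% rose and 17.4% fell with it.

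Of 16 genes commonly read as Wnt targets, 8 were tested, with 3 higher and 2 lower without IFNγ and 2 higher and 2 lower with it (medians 0.13 and 0.07). The shares of all genes were 14% higher and 14.6% lower without IFNγ, and 18.9% and 17.4% with it. Axin2, a feedback inhibitor of the pathway, fell (-0.48 ± 0.17 and -1.0 ± 0.17) and so did the receptor gene Lgr6 (-1.07 ± 0.19 and -0.97 ± 0.18). Ccnd1, cyclin D1, rose (1.43 ± 0.06 and 1.29 ± 0.06), and so did Lgr4 (0.30 ± 0.07 and 0.50 ± 0.07). Ccnd1 shares 1100 exon bases with LTO1 on the opposite strand, which had 3212 counts over all 12 libraries.

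Mc1r (ENSMUSG00000074037), the receptor for melanocyte-stimulating hormone, had 69.0, 65.7 and 66.1 CPM in shSdc1 libraries, against 82.0, 86.0 and 90.2 CPM in shRFP libraries. With IFNγ it had 85.1, 77.8 and 86.1 CPM in shSdc1 libraries and 113, 108 and 106 CPM in shRFP libraries. Knockdown libraries were lower without overlap in both settings. Mc1r fell by 22.1% in the absence of IFNγ (edgeR adjusted p = 2.77e-05) and fell by 23.9% in its presence (edgeR adjusted p = 6.41e-06). IFNγ raised Mc1r by 0.31 ± 0.05 on the log2 scale in shSdc1 cells (edgeR adjusted p = 0.000139) and by 0.34 ± 0.05 in shRFP cells (edgeR adjusted p = 3.83e-05). Knockdown cells given IFNγ and control cells without it overlapped, at 77.8 to 86.1 CPM and 82.0 to 90.2 CPM. A predicted gene overlaps the Mc1r exons on the opposite strand and had 0 counts.

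Of the 10 melanocortin genes listed, 9 matched and 4 were tested, of which 3 fell without IFNγ and 2 with it, and 0 rose (medians -0.33 and -0.17). Besides Mc1r these were Mgrn1, the mahogunin ubiquitin ligase, in both settings (-0.35 ± 0.05 and -0.33 ± 0.05) and Atrn, attractin, without IFNγ (-0.20 ± 0.04). The other melanocortin receptors were at or near 0, and the ligand gene Pomc averaged 0.477 to 0.802 CPM over the groups.

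Downstream of the receptor, 24 of 25 genes of the cAMP relay and CREB were tested. Without IFNγ 5 were higher and 4 lower, where 14% and 14.6% of all genes were. With IFNγ 8 were higher and 3 lower, where 18.9% and 17.4% of all genes were. The medians were 0.03 and 0.10. Nr4a3, a cAMP-responsive nuclear receptor, fell to 9.16 ± 0.68 CPM in shSdc1 cells, against 26.3 ± 1.05 CPM in shRFP cells (SD, n = 3 each). Its log2 fold changes were -1.53 ± 0.11 without IFNγ and -1.23 ± 0.11 with it. Sik1, a kinase that inhibits the CREB coactivators, rose (0.54 ± 0.10 and 0.70 ± 0.11). Creb1 fell in both settings (-0.26 ± 0.08 and -0.24 ± 0.09).

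Ednrb (ENSMUSG00000022122), the endothelin receptor of melanoblasts, had 1 count, in replicate 2 of shSdc1 with IFNγ, and 0 in the other 11 libraries. The library with the count stood at 0.0591 CPM. In the 3 groups at 0 counts, a count of 0 allows up to 0.0615 CPM in shSdc1 cells, 0.0563 CPM in shRFP cells and 0.0661 CPM in shRFP cells with IFNγ. The related receptor Ednra and the ligand genes Edn1, Edn2 and Edn3 were at or near 0 as well. Of 9 genes of the endothelin axis 3 were tested, and in each knockdown comparison 1 rose and 2 fell (medians -0.23 and -0.37). The processing enzyme Ece1 rose from a low level (0.89 ± 0.23 and 0.80 ± 0.23), and the G protein genes Gnaq (-0.36 ± 0.05 and -0.37 ± 0.05) and Gna11 (-0.23 ± 0.05 and -0.45 ± 0.05) fell.

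**Figure D2:**
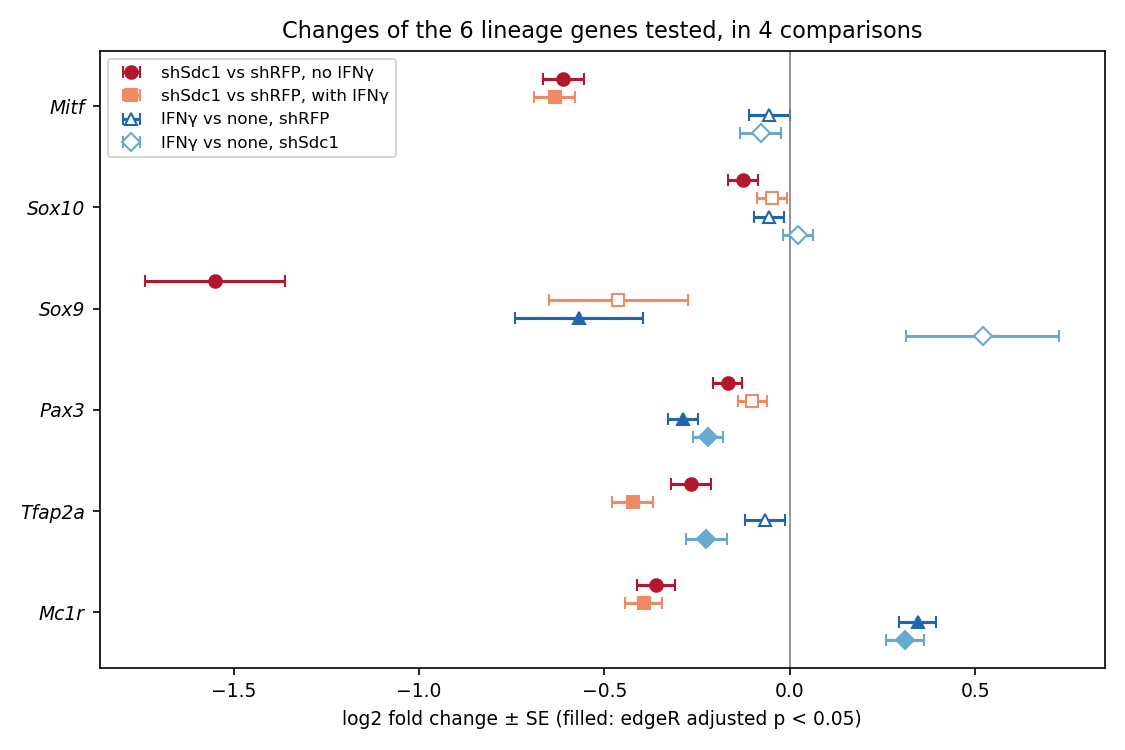
Log2 fold change with its SE for each tested lineage gene, in the knockdown comparisons (shSdc1 against shRFP, circles without IFNγ and squares with it) and the IFNγ comparisons (triangles in shRFP, diamonds in shSdc1). Filled symbols passed an edgeR adjusted p of 0.05: every circle is filled and left of 0, and the IFNγ symbols are filled to the right of 0 for Mc1r.

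IFNγ moved members in both directions. In shSdc1 cells it raised 1 of the 6 tested (Mc1r) and lowered 2 (Pax3 and Tfap2a), where 17.5% of all genes were higher and 13% lower. In shRFP cells it raised 1 (Mc1r) and lowered 2 (Pax3 and Sox9), where 17.2% were higher and 14.4% lower. The balance of those calls over all genes depends on the scaling. With upper-quartile scaling 2047 were higher and 2495 lower in shSdc1 cells, against 2469 and 1826 with TMM. In shRFP cells 1759 were higher and 2811 lower with that scaling, against 2422 and 2024 with TMM. The 4 comparisons share libraries, and each is given here on its own.

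Per kilobase of exon, which allows a rough comparison of levels between genes, Sox10 was the most abundant member in every group, at 134 CPM per kb in shSdc1 and 147 CPM per kb in shRFP cells. The lengths merge the exons of all annotated isoforms and come from another build than the counts. They may thus differ from the exons expressed and counted. Mitf stood at 39.6 CPM per kb in shSdc1 cells and 60.5 CPM per kb in shRFP cells, and Pax3 at 43.2 CPM per kb in shSdc1 cells and 48.5 CPM per kb in shRFP cells. With these lengths the order of Mitf and Pax3 differed between the shRNAs without IFNγ, but their values in shSdc1 cells are close and other lengths could change that order. With IFNγ the libraries of these genes overlapped in shSdc1 cells, with means of 37.6 CPM per kb for Mitf and 37.05 for Pax3, and stood apart in shRFP cells, with 58.3 for Mitf and 39.7 for Pax3. Mc1r followed at 18.4 CPM per kb in shSdc1 and 23.7 CPM per kb in shRFP cells, then Tfap2a at 13.1 CPM per kb in shSdc1 and 15.8 CPM per kb in shRFP cells. Sox9 was last of the tested members, at 0.585 CPM per kb in shSdc1 and 1.71 CPM per kb in shRFP cells.

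The pigment genes were set beside Mitf to see whether they moved with it in size. All 20 listed were tested, and 18 fell and 2 rose in each knockdown comparison, with medians of -0.50 without IFNγ and -0.70 with it. The size of the fall varied widely among them. Without IFNγ 9 genes fell by more than Mitf, 9 fell by less, and 2 rose; with IFNγ the counts were 10, 8 and 2. Among those that fell by more were Oca2, a melanosomal transporter (-1.97 ± 0.20), Sytl2, which acts in vesicle transport (-1.55 ± 0.05), the channel gene Trpm1 (-1.48 ± 0.05) and Rab27a, which tethers melanosomes to the actin motor (-1.16 ± 0.06). The genes that rose were Tpcn2, an endolysosomal channel gene (0.33 ± 0.09), and the copper transporter gene Atp7a (0.29 ± 0.06).

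**Figure D3:**
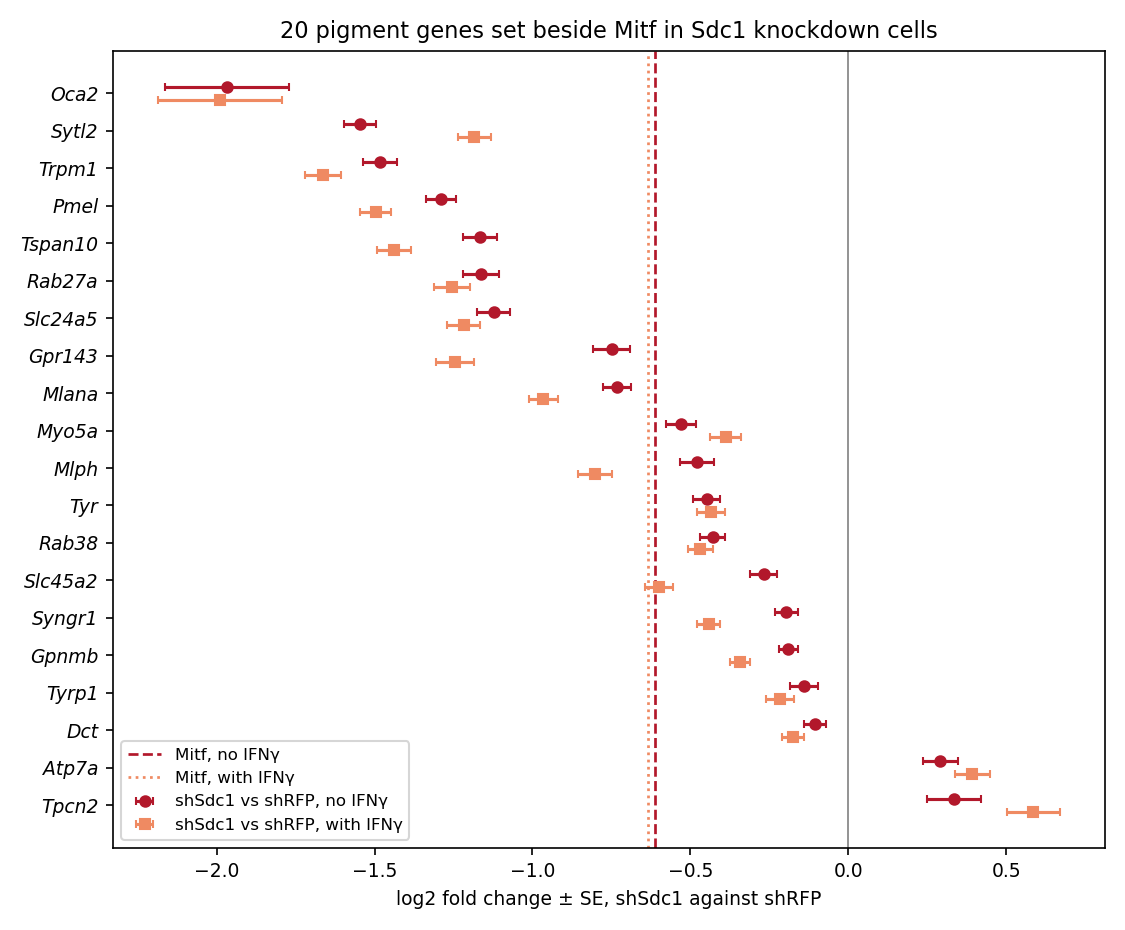
Log2 fold change with its SE of 20 pigment genes in shSdc1 against shRFP cells, circles without IFNγ and squares with it, sorted by the value without IFNγ. The vertical lines mark the change of Mitf (dashed without IFNγ, -0.61, dotted with it, -0.63): genes lie on either side of them, down to -1.97 for Oca2 and up to 0.33 for Tpcn2 without IFNγ.

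The melanogenic enzyme genes fell less than Mitf. Tyr, tyrosinase, had 301, 327 and 317 CPM in shSdc1 libraries, against 435, 434 and 421 CPM in shRFP libraries (-0.45 ± 0.04, edgeR adjusted p = 2.13e-07). Tyrp1 had 5535, 5780.4 and 5598 CPM in shSdc1 libraries, against 6292, 6188 and 6140.4 CPM in shRFP libraries (-0.14 ± 0.04, edgeR adjusted p = 0.0247). Dct had 4169, 4136 and 4049.6 CPM in shSdc1 libraries, against 4397, 4472 and 4418 CPM in shRFP libraries (-0.10 ± 0.03, edgeR adjusted p = 0.0245). The knockdown libraries were below the control libraries for each of these enzymes.

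Pmel and Mlana, genes of melanosome structure, fell more than Mitf, Mlana by a small margin without IFNγ. Pmel, which forms the fibrils of the melanosome, had 1798, 1849 and 1745 CPM in shSdc1 libraries, against 4383, 4351 and 4447 CPM in shRFP libraries (-1.29 ± 0.05, edgeR adjusted p = 8.18e-13). Mlana, which encodes the melanosomal protein MART-1, had 591, 599.8 and 587 CPM in shSdc1 libraries, against 969.7, 973 and 1010.1 CPM in shRFP libraries (-0.73 ± 0.05, edgeR adjusted p = 5.59e-10). Pmel shares 34 exon bases with Cdk2 and 105 with Dgka on the opposite strand in the GRCm38 annotation.

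The difference from Mitf was measured in each library as the log2 ratio of a pigment gene to Mitf. For Tyr this ratio was 0.36 ± 0.03 in shSdc1 and 0.20 ± 0.05 in shRFP libraries (SD, n = 3 each), and 0.13 ± 0.06 in shSdc1 and -0.07 ± 0.03 in shRFP libraries with IFNγ. Tyrp1 stood at 4.52 ± 0.03 in shSdc1 and 4.05 ± 0.06 in shRFP libraries, and Dct at 4.06 ± 0.06 in shSdc1 and 3.56 ± 0.07 in shRFP libraries. These 3 transcripts were thus more abundant relative to Mitf in the knockdown, by 0.18 for Tyr, 0.44 for Tyrp1 and 0.48 for Dct, averaged over the IFNγ settings. Pmel stood lower, at 2.87 ± 0.04 in shSdc1 and 3.55 ± 0.09 in shRFP libraries, and Mlana at 1.27 ± 0.05 in shSdc1 and 1.39 ± 0.10 in shRFP libraries. Their average differences over the IFNγ settings were -0.77 for Pmel and -0.23 for Mlana. For Mlana the difference was -0.12 without IFNγ and -0.33 with it.

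For all 5 genes the 3 knockdown libraries lay on the same side of the 3 control libraries in both IFNγ settings. For Mlana without IFNγ the gap was narrow, with the highest shSdc1 library at 1.31 and the lowest shRFP library at 1.329. The share of all genes whose ratio to Mitf separates in this way was not computed. An exact permutation test, two-sided and with labels permuted within each IFNγ setting, gave p = 0.005 for each of the 5 genes. That is the smallest value its 400 arrangements allow (also 0.005 adjusted over the 5). All 5 ratios share Mitf, which itself fell in both settings without overlap of libraries. A gene that did not change in the knockdown would thus also stand higher relative to Mitf. The test shows only that these transcripts did not move by the same amount as Mitf. The Tyr ratio is lower with IFNγ than without it in each shRNA, since Tyr fell with IFNγ (-0.31 ± 0.04 in shSdc1 cells, edgeR adjusted p = 2.36e-05, and -0.32 ± 0.04 in shRFP cells, edgeR adjusted p = 1.4e-05) while the change of Mitf did not pass.

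**Figure D4:**
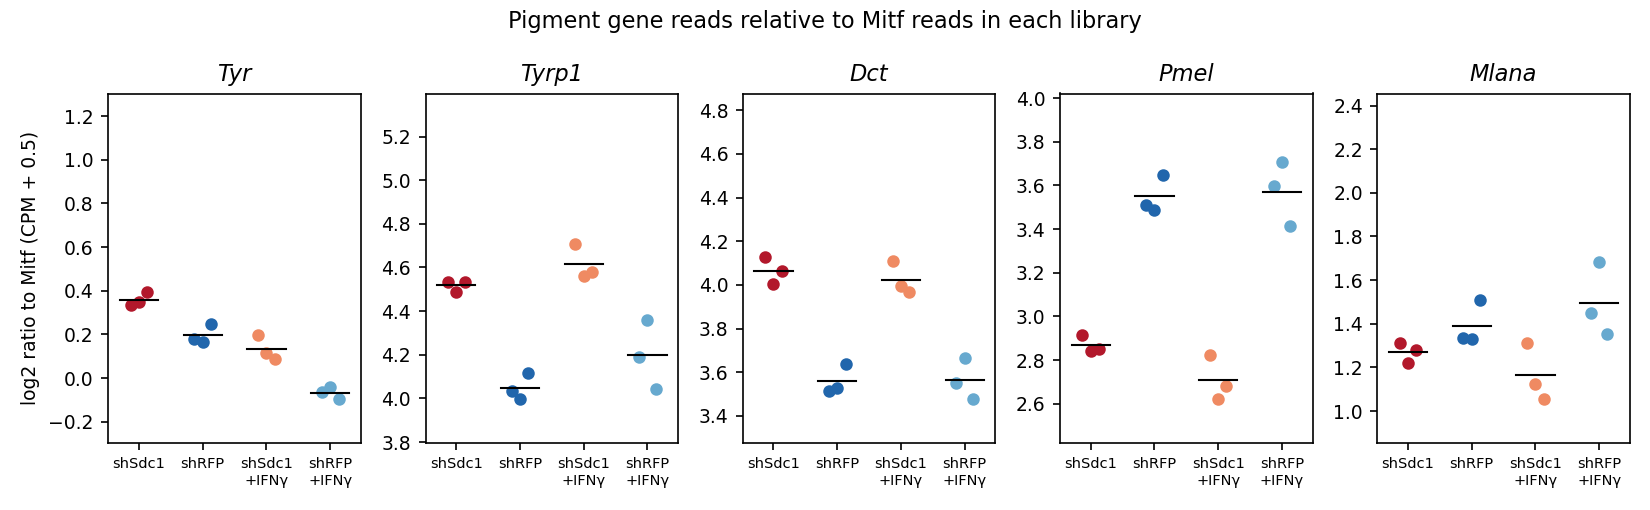
Log2 ratio of 5 pigment genes to Mitf (CPM + 0.5) in each library, 1 point per library with a line at the group mean; the vertical axes have different ranges of equal length. Tyr, Tyrp1 and Dct are higher in shSdc1 than in shRFP libraries in both settings, and Pmel and Mlana are lower.

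Given IFNγ, 2 of 20 pigment genes were higher and 12 lower in shSdc1 cells (median -0.17), where 17.5% and 13% of all genes were. In shRFP cells 2 were higher and 7 lower (median -0.02), where 17.2% and 14.4% of all genes were. The count in shRFP cells was 1 higher and 9 lower with upper-quartile scaling. Besides Tyr, Trpm1 fell in both (-0.41 ± 0.06 in shSdc1 and -0.23 ± 0.05 in shRFP cells) and so did Tspan10 (-0.47 ± 0.06 in shSdc1 and -0.20 ± 0.05 in shRFP cells). Gpnmb, a melanosomal glycoprotein gene, rose (0.13 ± 0.03 in shSdc1 and 0.28 ± 0.03 in shRFP cells). MITF protein and its binding were not measured here, and whether the lower Mitf transcript has a part in the fall of the pigment genes was not tested.

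Some pigment genes that fell by different amounts hold the same MITF-type motif in their promoters. TCATGTG, the core of the M-box, contains the E-box variant CATGTG. It was found in the promoters of 6 of the 14 pigment genes in the RefSeq table (Dct, Slc24a5, Trpm1, Tspan10, Tyr and Tyrp1), which have 16 starts. Among the 5 members in the table, with 11 starts, it was found in Mc1r. CATGTG was found in 7 of the 14 pigment genes, those 6 and Oca2. TCATGTG occurs in 3.77% of all 32851 starts, searched on both strands, and CATGTG in 14.2%. A gene was counted if any of its starts held the motif, whereas these shares are per start. The promoters of Mc1r, Tyr, Tyrp1, Dct and Trpm1 are printed to show the motif, in capitals, in a member, in the enzymes that fell less than Mitf and in Trpm1, which fell more. All are read 5′ to 3′ on the strand of the gene, in build GRCm38.p6, with the start site after the first 250 bases.
Mc1r start 1, chr8:123406832-123407131, plus strand: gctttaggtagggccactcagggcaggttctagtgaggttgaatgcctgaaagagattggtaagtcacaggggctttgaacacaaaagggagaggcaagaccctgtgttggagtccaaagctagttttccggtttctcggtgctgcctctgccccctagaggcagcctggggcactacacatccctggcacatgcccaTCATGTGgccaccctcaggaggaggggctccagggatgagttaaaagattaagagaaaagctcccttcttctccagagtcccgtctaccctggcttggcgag
Tyr start 1, chr7:87493463-87493762, minus strand: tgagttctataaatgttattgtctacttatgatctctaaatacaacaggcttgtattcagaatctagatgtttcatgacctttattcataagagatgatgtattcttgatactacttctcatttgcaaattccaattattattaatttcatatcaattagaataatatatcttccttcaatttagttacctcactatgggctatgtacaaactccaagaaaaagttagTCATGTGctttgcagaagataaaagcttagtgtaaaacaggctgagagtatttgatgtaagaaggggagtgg
Tyrp1 start 1, chr4:80833963-80834262, plus strand: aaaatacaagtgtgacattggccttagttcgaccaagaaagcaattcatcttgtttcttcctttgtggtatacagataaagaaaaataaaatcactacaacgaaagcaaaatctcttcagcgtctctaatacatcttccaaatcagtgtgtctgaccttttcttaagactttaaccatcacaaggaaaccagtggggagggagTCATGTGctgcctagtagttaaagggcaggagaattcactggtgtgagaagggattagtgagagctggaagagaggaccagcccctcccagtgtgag
Dct start 1, chr14:118052197-118052496, minus strand: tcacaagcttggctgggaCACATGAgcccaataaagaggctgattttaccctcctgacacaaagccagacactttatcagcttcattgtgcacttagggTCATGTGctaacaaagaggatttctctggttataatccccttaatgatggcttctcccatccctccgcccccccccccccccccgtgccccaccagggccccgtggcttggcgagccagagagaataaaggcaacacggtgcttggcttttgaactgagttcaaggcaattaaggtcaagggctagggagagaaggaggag
Trpm1 start 1, chr7:64153585-64153884, plus strand: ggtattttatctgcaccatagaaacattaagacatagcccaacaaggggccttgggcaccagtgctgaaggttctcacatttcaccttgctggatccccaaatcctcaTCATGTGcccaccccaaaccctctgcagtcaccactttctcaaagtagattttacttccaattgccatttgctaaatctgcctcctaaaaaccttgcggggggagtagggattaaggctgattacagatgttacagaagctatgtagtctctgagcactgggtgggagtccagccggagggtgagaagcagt
The motif begins 52 bases before the start in Mc1r, 22 in Tyr, 47 in Tyrp1 and 142 in Trpm1, and in Dct it occurs at 151 bases and, as its reverse complement CACATGA, at 232 bases. Trpm1 has 2 starts, and start 2, not printed, does not hold TCATGTG. The matched genes changed by -0.10 for Dct, -0.14 for Tyrp1, -0.36 for Mc1r, -0.45 for Tyr, -1.12 for Slc24a5, -1.17 for Tspan10 and -1.48 for Trpm1 in the knockdown without IFNγ. Slc24a5 shares 921 exon bases with Myef2 on the opposite strand, which had 35182 counts over all 12 libraries. Since the strand setting is not given, the Slc24a5 value is uncertain. The E-box CACGTG was found in 4 of the 14 (Atp7a, Mlph, Rab27a and Trpm1) and in 7.15% of all starts, and of those Atp7a rose while Mlph (-0.48 ± 0.05) and Rab27a fell.

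Genes listed as MITF targets outside pigment synthesis, a status not tested here, split in direction. Of 26 listed 20 were tested, and 5 rose and 6 fell without IFNγ, while 6 rose and 8 fell with it (medians 0.02 and 0.05). Over all genes 14% rose and 14.6% fell without IFNγ, and 18.9% rose and 17.4% fell with it. Gyg, glycogenin, fell (-1.0 ± 0.04 and -0.96 ± 0.04), as did Rragd, a GTPase of the mTORC1 pathway (-0.76 ± 0.06 and -0.83 ± 0.07), and Scd1, a fatty acid desaturase (-0.44 ± 0.04 and -0.37 ± 0.04). Cdk2 was lower as well (-1.01 ± 0.05 and -0.98 ± 0.05), but it is the gene that overlaps Pmel, so its counts are uncertain. Ppargc1a, a coactivator of mitochondrial genes, rose (0.28 ± 0.05 and 0.49 ± 0.05).

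Known SOX10 targets of glia and melanoma also split, with 2 higher and 3 lower of 8 tested (14 listed) without IFNγ and 4 higher and 3 lower with it (medians -0.04 and 0.25). Of all genes, 14% were higher and 14.6% lower without IFNγ, and 18.9% and 17.4% with it. Erbb3, a neuregulin receptor, fell to 57.2 ± 0.32 CPM in shSdc1 cells, against 98.0 ± 1.53 CPM in shRFP cells (SD, n = 3 each), at -0.78 ± 0.05 without IFNγ and -0.42 ± 0.05 with it. S100b fell too (-0.61 ± 0.05 and -0.82 ± 0.05), and Nes, nestin, rose (0.35 ± 0.04 in both). Kit, the receptor of the stem cell factor, averaged 2.33 CPM in shSdc1 and 2.39 CPM in shRFP cells and did not pass (-0.04 ± 0.24, edgeR adjusted p = 0.929). Of the 5 genes of the KIT axis and ERBB3, 4 were tested, and 1 rose and 2 fell in each knockdown comparison (medians -0.12 and -0.04). The ligand gene Kitl rose from a low level (1.08 ± 0.33 and 1.57 ± 0.33).

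Of 15 genes listed as repressors or rivals of MITF, not all of which act only in that way, 9 were tested. Without IFNγ 0 were higher and 3 lower, where 14% and 14.6% of all genes were. With IFNγ 1 was higher and 2 lower, where 18.9% and 17.4% of all genes were. The medians were -0.14 and -0.04. Bhlhe41 and Bhlhe40, related repressors that bind E-boxes, fell in both settings (-0.74 ± 0.05 and -1.05 ± 0.05 for Bhlhe41, -0.33 ± 0.09 and -0.61 ± 0.09 for Bhlhe40). Pou3f2, which encodes BRN2, did not pass in the knockdown comparisons (-0.31 ± 0.13, edgeR adjusted p = 0.0964, and -0.24 ± 0.15, edgeR adjusted p = 0.214).

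Genes associated with melanoma states of low MITF rose or did not pass. Of 18 listed 10 were tested, with 7 higher and 0 lower without IFNγ and 8 higher and 0 lower with it (medians 0.58 and 0.85). Ngfr, the low-affinity neurotrophin receptor, averaged 2.29 ± 0.52 CPM in shSdc1 and 0.37 ± 0.26 CPM in shRFP cells (SD, n = 3 each), a log2 fold change of 2.59 ± 0.35 (2.74 ± 0.28 with IFNγ). Axl, a receptor tyrosine kinase, rose (0.96 ± 0.09 and 1.71 ± 0.07), and so did Ccn1 (1.17 ± 0.06 and 1.33 ± 0.06) and Jun (0.81 ± 0.08 and 1.03 ± 0.07). Wnt5a, Egfr and Tnc, other genes of that state, were at or near 0.

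Markers of other cell types were checked beside these changes. Of 10 leukocyte markers 2, Cd68 and Lyz2, were kept, and the summed level of the list was 8.50 to 8.92 CPM in shSdc1 and 2.49 to 3.38 CPM in shRFP libraries, and 15.8 to 16.6 CPM in shSdc1 and 5.73 to 8.38 CPM in shRFP libraries with IFNγ. The defining markers Ptprc, Cd3e, Adgre1, Itgam, Csf1r, Itgax and Ly6g were at or near 0, of which 4 were at 0 in all 12 libraries. Of 7 keratinocyte markers 0 were kept and of 6 endothelial markers 1. Of 8 fibroblast markers 4 were kept, and the list summed to 64.8 to 67.5 CPM in shSdc1 and 65.0 to 68.3 CPM in shRFP libraries. With IFNγ it summed to 72.3 to 75.4 CPM in shSdc1 and 44.4 to 54.2 CPM in shRFP libraries, without overlap. Its members moved in opposite directions in the knockdown: Col1a2, a collagen I chain, fell (-1.70 ± 0.08 without IFNγ and -1.26 ± 0.09 with it) and Postn, periostin, rose (1.22 ± 0.10 and 1.29 ± 0.09). Col1a1 rose with IFNγ (1.36 ± 0.33). Of 7 Schwann cell markers 6 were kept, with a sum of 450 to 464 CPM in shSdc1 and 538 to 544 CPM in shRFP libraries, and of 505 to 523 CPM in shSdc1 and 531 to 627 CPM in shRFP libraries with IFNγ. The Schwann list overlaps with the SOX10 targets above, S100b and Mbp among them. The part of any of these in the member changes was not tested.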

How the data were processed

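RNA-seq counts per gene were analysed as deposited. The authors' table holds whole-number counts, not normalized. Per the submitters' processing notes the tools were Trimmomatic, HISAT2 2.0.5 and HTSeq with build GRCm39, with no annotation or strand setting named in the sources used here. Symbols (52083 entries matched), exon lengths and overlaps came from GENCODE M21 on GRCm38, and promoters from RefSeq on GRCm38.p6. The members and lists were chosen with earlier results of these data known.

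Counts in the 12 libraries (14337771 to 21548940 in total) were filtered with filterByExpr (minimum count 10, minimum total 15), which kept 14089 of 27472 entries with a count. They were scaled by TMM and fitted in edgeR 4.0.16 with a coefficient per group, so that all groups shared an estimate of the spread. Quasi-likelihood p-values, two-sided, were adjusted by Benjamini-Hochberg over all genes tested. SEs were derived from the F statistics. No block was used, since the replicate numbers are not stated to mark a shared culture or day. A check after the fit showed that same-numbered libraries did not deviate together (correlations of -0.0961 to 0.0367). Floors are 3 counts over a group and cover counting error only.

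Named genes were the members, Sdc1, 5 pigment genes and, per list and comparison, up to 4 called genes with a group mean of at least 1 CPM, ranked by absolute log2 fold change, plus listed genes whose call differed between the knockdown comparisons. Genes named as at or near 0 or as not passing, and Atp7a, Rab27a, Slc24a5 and Syngr1, fall outside that rule and were chosen after their values were seen. Some listed genes are not reported here by name. Likeness used genes of at least 5 CPM and was printed for Mitf and for members whose group means span at least 1 on the log2 scale. The alternatives were DESeq2 size factors, upper-quartile scaling, other filters, the DESeq2 1.42.0 Wald test, limma 3.58.1 voom, a replicate block, the compared groups alone, other pseudocounts than 0.5 for ratios, and leaving out each library. Leaving out an abundant entry with no symbol and the 677 assembled loci was added after seeing the data. The fit was tested on simulated data.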

Additional observations from a re-analysis of the deposited data

Results flagged for a closer look

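For some genes the knockdown effect with IFNγ differed from that without it, by the interaction term of the edgeR fit (adjusted p below 0.05). Each value is the log2 fold change of shSdc1 against shRFP cells with IFNγ minus that without it. Among the lineage genes this was Sox9, at 1.09. Among the pigment genes the difference was -0.5 for Gpr143, -0.33 for Slc45a2, -0.32 for Mlph, -0.27 for Tspan10, -0.24 for Syngr1, -0.23 for Mlana, -0.15 for Gpnmb and 0.36 for Sytl2. The fall was thus larger with IFNγ for 7 of these 8. Of the 20 pigment genes 7 were lower and 1 higher, while 9.73% of all genes passed, 726 lower and 645 higher. Those counts over all genes moved when a library was left out, as given above. With upper-quartile scaling 6 pigment genes were lower and 1 higher. Mitf, at -0.02 ± 0.08, did not pass.

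Among the other listed genes the differences were 0.75 for Axl, 0.71 for Onecut2, 0.55 for Sox4, 0.53 for Pde4b, 0.44 for Col1a2, 0.36 for Erbb3, 0.33 for Met, -0.29 for Lig1, -0.31 for Bhlhe41, -0.32 for Vat1 and -0.39 for Pmp22.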

How the results depend on the processing

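Each member's fold change was recomputed under up to 21 alternatives. Mitf fell in all of them, by -0.65 to -0.59 without IFNγ and by -0.70 to -0.59 with it on the log2 scale. The members that passed numbered 5 to 6 in the knockdown without IFNγ, 3 to 4 with it, 3 to 4 for IFNγ in shSdc1 cells and 2 to 3 for IFNγ in shRFP cells. The Mitf interaction, which passed in none of them, ranged from -0.0927 to 0.0193 when a library was left out, and its sign turned in 4 such fits, at 0.0152 without replicate 3 of shRFP, 0.00756 without replicate 2 of shSdc1, 0.00635 without replicate 3 of shRFP with IFNγ and 0.0193 without replicate 1 of shSdc1 with IFNγ. The Mc1r interaction, -0.0692 to 0.00747 over the left-out libraries, turned at 0.00747 without replicate 2 of shSdc1 with IFNγ. The IFNγ change of Sox10 in shSdc1 cells turned to -0.0212 with upper-quartile scaling and to -0.00299 without replicate 3 of shSdc1, in a range of -0.00299 to 0.0376 over the left-out libraries. None of these passed in either form, and the cause was not tested. With the replicate number as a block, Mitf gave -0.61 and -0.63 in the knockdown (edgeR adjusted p = 7.27e-07 and 3.93e-07) and no member's call changed. At 0 to 3 counts, Lef1 and Ednrb cannot be compared at this depth.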
